A study of Chlorocebus sabaeus with 3 samples.

Results

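The ERBB receptors (EGFR, ERBB2, ERBB3 and ERBB4) and their EGF family ligands (AREG, EREG, HBEGF, TGFA, BTC and NRG1) were read on human expression arrays hybridized with vervet monkey RNA from limbus, cornea, and conjunctiva. Members were the 10 listed genes, taken from probe sets that carried 1 gene symbol. Of these, 9 genes had a named probe set, among 19775 genes in all. They were measured by 38 of the 54675 probe sets of the array. AREG (amphiregulin) was not analysed here, because no probe set carried its symbol in the annotation used, alone or with others.

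The 3 groups were tissues of vervet monkeys, with 1 array per tissue, and the labels give no treatment. According to the study's methods, the animals were of similar age, the globes were frozen soon after death, and the tissues came from the same eye. Each corneal and limbal sample held epithelium together with the anterior part of its stroma, and Tenon's capsule was left on the conjunctiva. Without a replicate array, the spread of a value is unknown and no test was made. The only internal check was whether probe sets of the same gene gave the same order of tissues. In such mixed tissue, fewer cells of a type and less RNA per cell cannot be told apart.

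The ERBB receptors are membrane tyrosine kinases that act in pairs. EGFR binds EGF, TGFA, AREG, HBEGF, BTC and EREG. ERBB2 has no ligand of its own and serves as the preferred partner, ERBB3 binds neuregulins but has little kinase activity, and ERBB4 binds neuregulins and several EGFR ligands. The ligands are made as membrane proteins and are released by proteases of the ADAM family. In the corneal epithelium, EGFR signaling is known to drive the migration and proliferation that close wounds.

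Values are intensities on a linear scale after robust multi-array average (RMA) normalization. The median of all probe sets was 49.0 in limbus, 48.8 in cornea, and 50.7 in conjunctiva. A value of 100 was taken as a working level, since ratios of lower values are uncertain, and a difference was counted when the ratio of the linear values was at least 2. Of the 38 probe sets, 18 reached 100 in at least 1 tissue, and these belonged to EGFR, ERBB2, ERBB3, HBEGF, TGFA, and NRG1. The probes match human transcripts, so each ratio was taken within a probe set. Levels of different probe sets were used only to choose the brightest of a gene and to sum marker values. In those sums the brightest markers weigh most. The tissue labels were checked against defining markers. KRT12, the corneal keratin, was at 8068 in cornea, 2633 in limbus, and 54.3 in conjunctiva, and the goblet cell mucin MUC5AC was at 102, 127, and 1618, in the same order.

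**Figure D1:**
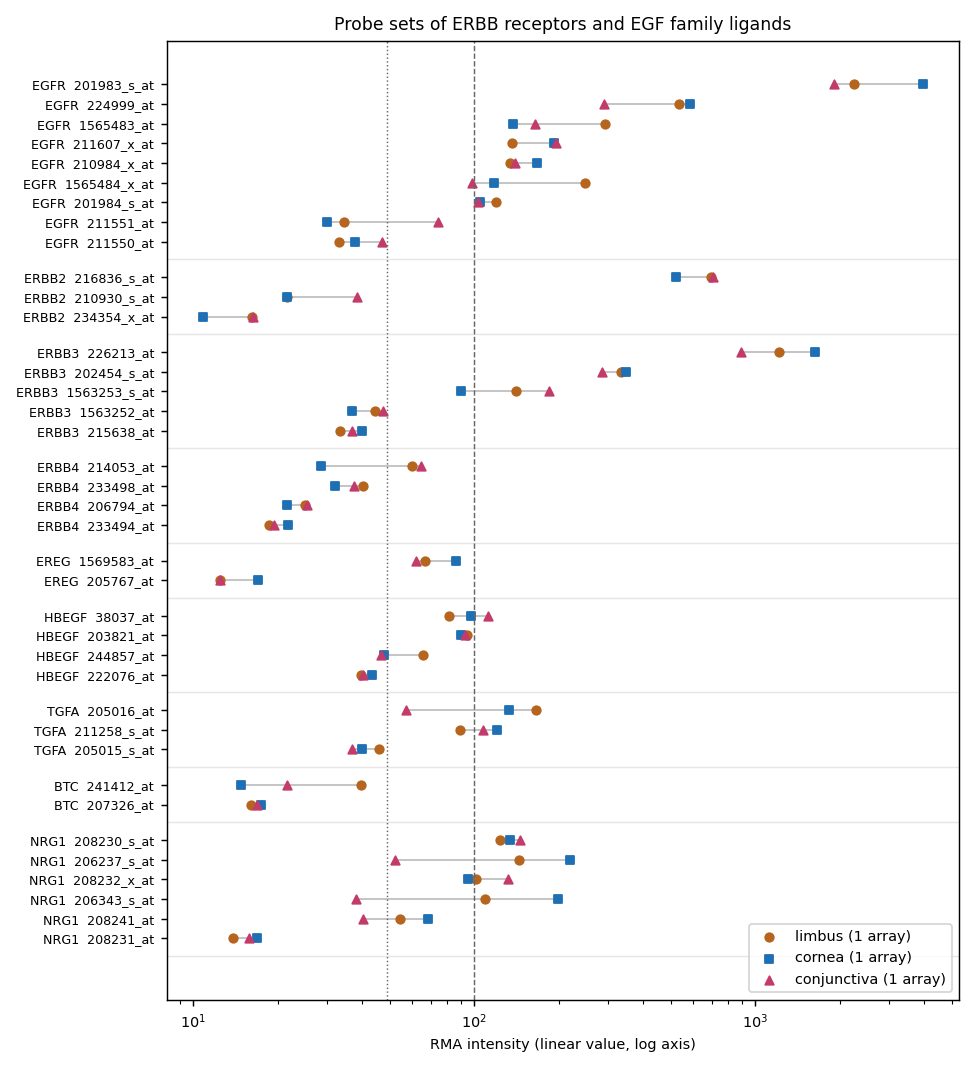
Values of all 38 probe sets of the 9 measured genes, from 1 array each of limbus (circles), cornea (squares), and conjunctiva (triangles), on a log axis of RMA intensity; grey lines span the 3 tissues. The dashed line marks 100 and the dotted line the array median of 49.0. The widest spans above the dashed line are those of the NRG1 probe sets 206343_s_at (5.24-fold) and 206237_s_at (4.19-fold), while ERBB4, EREG, and BTC lie below it in every tissue.

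Among the 38 probe sets, 11 were at least 2-fold apart between some pair of tissues, compared with 10.3% of all probe sets. Of the 18 that reached 100, 8 were (EGFR 4, NRG1 2, TGFA 1, and ERBB3 1), compared with 20.2% of all probe sets at that level. Between the cornea and the conjunctiva, 5 member probe sets were higher in the cornea (3.89% of all probe sets) and 3 in conjunctiva (3.79%). Between the limbus and the conjunctiva, 4 were higher in the limbus (1.9%) and 1 in conjunctiva (1.67%). Between the limbus and the cornea, 4 were higher in the limbus (2.68%) and 0 in cornea (1.95%). By the study's rule of 2-fold over both other tissues, 1 member probe set was selected for the limbus (0.355% of all probe sets), 1 for the conjunctiva (1.1%), and 0 for the cornea (1.32%). Both selected were EGFR probe sets. When each gene was read from its brightest probe set, the one whose mean log2 value is highest, 4 of the 9 genes (EGFR, ERBB4, TGFA, and BTC) differed by 2-fold between some pair of tissues, compared with 13.9% of all genes, and EGFR and TGFA were the 2 of them that reached 100. Probe sets of 1 gene share their transcript, so these counts are not counts of independent events. The median log2 ratio over the 38 probe sets was -0.09 for the limbus over the cornea, -0.01 for the limbus over the conjunctiva, and 0.04 for the cornea over the conjunctiva, against -0.03, -0.03, and -0.00097 over all probe sets.

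EGFR, the receptor of EGF and TGFA, had 9 probe sets, and they did not share a single order of tissues. The probe set with the highest mean, 201983_s_at, had a value of 3964 in cornea, 2237 in limbus, and 1905 in conjunctiva. On the next, 224999_at, the values were 584 in cornea, 534 in limbus, and 291 in conjunctiva. Both were highest in the cornea and lowest in the conjunctiva, although the limbus was highest on 224999_at when each array was divided by its spiked-in hybridization controls. They differed in where the limbus lay. On 201983_s_at the cornea exceeded the limbus 1.77-fold and the limbus exceeded the conjunctiva 1.17-fold, whereas on 224999_at these ratios were 1.10 and 1.84. The cornea was 2.08-fold above the conjunctiva on the first and 2.01-fold on the second. Both ratios lie at the 2-fold threshold, and 18.3% and 19.9% of all probe sets reaching 100 spanned at least as much between their highest and lowest tissues. After quantile normalization of the 3 arrays together they were 1.91 and 1.81, and after division by the hybridization controls 1.66 and 1.61.

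A further pair of EGFR probe sets, which the annotation assigns to the same transcript record, was highest in the limbus instead. On 1565483_at the limbus was at 292, the cornea at 137, and the conjunctiva at 164. On 1565484_x_at the values were 247, 117, and 98.2. The limbus was 2.13-fold and 2.11-fold above the cornea and 1.78-fold and 2.52-fold above the conjunctiva. The second of these was the single member probe set that met the study's selection rule for the limbus. Its name marks it as a probe set whose probes can also match other transcripts. The remaining EGFR probe sets that reached 100 showed no 2-fold difference. 201984_s_at was nearly level, with 119.7 in limbus, 105 in cornea, and 103 in conjunctiva. 210984_x_at (134, 167, and 139.8 in the same order) and 211607_x_at (136, 192, and 195) were lowest in the limbus. Of the 7 EGFR probe sets that reached 100, 3 were highest in the cornea, 3 in limbus, and 1 in conjunctiva. Of the 2 that did not, 211551_at was the one counted for the conjunctiva, at 74.5 against 34.5 in limbus and 29.8 in cornea.

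ERBB2, the partner receptor, was close to level in the limbus and the conjunctiva and lowest in the cornea. Its one probe set above 100, 216836_s_at, was at 697 in limbus, 522 in cornea, and 705 in conjunctiva. The cornea was 0.741 of the conjunctiva and 0.75 of the limbus. The order of the limbus and the conjunctiva is not firm, since division of each array by its median or its hybridization controls placed the limbus above. With these controls the limbus was also 2.05-fold above the cornea, past the 2-fold rule. The other ERBB2 probe sets were under the array median in every tissue, at 38.3 or lower, and were also highest in the conjunctiva and lowest in the cornea.

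ERBB3, the neuregulin receptor with weak kinase activity, had the same order as the brightest EGFR probe sets on its brightest pair, although the limbus was highest on both after division by the hybridization controls. On 226213_at the cornea was at 1629, the limbus at 1218, and the conjunctiva at 889.7. On 202454_s_at the values were 347, 333, and 285, so that the tissues differed much less. The cornea was 1.83-fold above the conjunctiva on the first and 1.22-fold on the second, where the controls turned the ratio to 0.973. The third ERBB3 probe set above 100, 1563253_s_at, ran the opposite way. It was at 185 in conjunctiva, 141 in limbus, and 90.1 in cornea, a 2.06-fold difference between the outer tissues. The remaining pair stayed under 50.7, the highest of the array medians, in all tissues.

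ERBB4, which binds neuregulins and several EGFR ligands, was low throughout. Its brightest probe set, 214053_at, was at 60.1 in limbus, 28.4 in cornea, and 64.8 in conjunctiva. The cornea was lowest, and the limbus and the conjunctiva were 2.11-fold and 2.28-fold above it, on values under 100. The other 3 probe sets lay between 18.6 and 40.3, under the array median in each tissue, and differed by at most 1.26-fold.

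**Figure D2:**
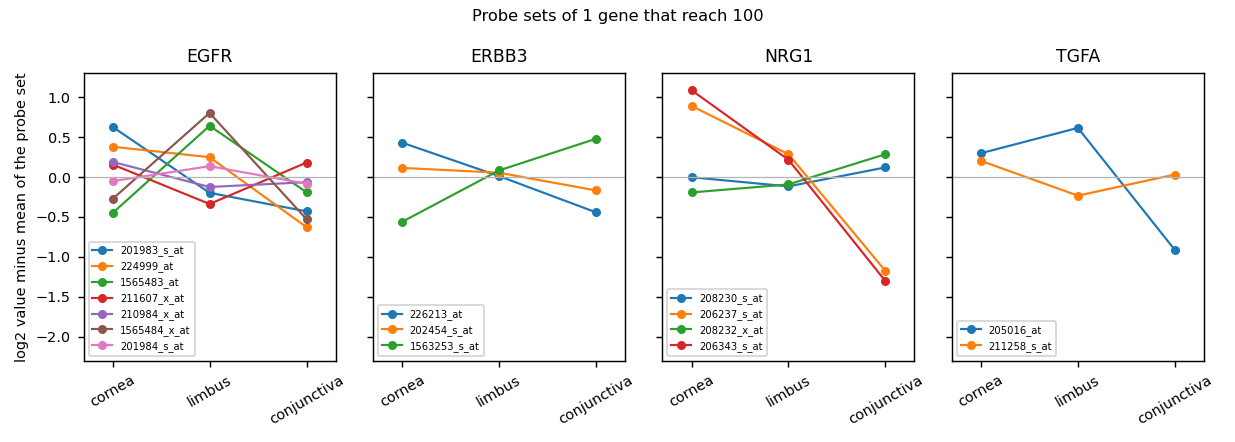
Log2 value minus the mean of the probe set in the cornea, the limbus, and the conjunctiva (1 array each), for the probe sets of EGFR, ERBB3, NRG1, and TGFA that reach 100; each line is a probe set. The NRG1 probe sets 206237_s_at and 206343_s_at fall steeply to the conjunctiva while the other NRG1 lines stay nearly flat, and a pair of EGFR lines peaks in the limbus.

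TGFA (transforming growth factor alpha), an autocrine EGFR ligand of epithelia, was the EGFR ligand with the widest span above 100. Its probe set with the highest mean, 205016_at, was at 165 in limbus, 133 in cornea, and 57.3 in conjunctiva. The conjunctiva was the lowest tissue, with the limbus 2.88-fold and the cornea 2.32-fold above it. The limbus and the cornea were closer, at a ratio of 1.25. After division by the hybridization controls the ratio of cornea to conjunctiva was 1.85, under the 2-fold rule, and that of limbus to conjunctiva was 3.54. Among all probe sets reaching 100, 8.67% spanned at least 2.88-fold. The other TGFA probe sets did not show this difference. On 211258_s_at the values were 89.2 in limbus, 121 in cornea, and 107 in conjunctiva, and 205015_s_at lay between 36.8 and 45.9.

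HBEGF (heparin-binding EGF-like growth factor), a ligand released in epithelial wounds, differed little between the tissues. On 38037_at, the HBEGF probe set that reached 100, the values were 81.6 in limbus, 97.6 in cornea, and 112 in conjunctiva. On 203821_at they were 94.2, 89.8, and 92.8, a span of 1.05-fold, which 98.8% of all probe sets reaching 100 equaled or exceeded. The order of the tissues was different on each of its 4 probe sets, and the widest span was 1.41-fold.

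EREG (epiregulin) and BTC (betacellulin), ligands of EGFR and ERBB4, did not reach 100 in any tissue. On the EREG probe set 1569583_at the cornea was at 86.1, the limbus at 66.8, and the conjunctiva at 62.3, and the other EREG probe set was also highest in the cornea, at 17.0 against 12.4 and 12.5. These spans were 1.38-fold and 1.37-fold. The BTC probe set 241412_at was at 39.6 in limbus, 14.8 in cornea, and 21.5 in conjunctiva. All 3 values were under the array median. The limbus was 2.67-fold above the cornea there, while the other BTC probe set, at 16.0, 17.4, and 16.9, was level.

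NRG1 (neuregulin 1), the ligand of ERBB3 and ERBB4, had the largest differences of the family, on a pair of its 6 probe sets. On 206343_s_at the cornea was at 199, the limbus at 109, and the conjunctiva at 37.9. On 206237_s_at the values were 219.7, 144, and 52.4. Both were highest in the cornea and intermediate in the limbus, except that the limbus and the cornea were level on 206237_s_at after division by the hybridization controls (a ratio of 1.01). In the conjunctiva they were near or under the array median. The cornea exceeded the conjunctiva 5.24-fold and 4.19-fold, and the limbus exceeded it 2.87-fold and 2.75-fold. The ratios of cornea to limbus, 1.83 and 1.52, missed the 2-fold rule. Spans at least this wide were found in 3.47% and 4.78% of all probe sets reaching 100. On 208241_at, a further probe set, the tissues had the same order at lower values, 68.7 in cornea, 54.3 in limbus, and 40.3 in conjunctiva.

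The other NRG1 probe sets above 100 did not share this order. 208230_s_at, which had the highest mean, was at 124 in limbus, 134 in cornea, and 146 in conjunctiva, a span of 1.18-fold. 208232_x_at was at 102, 95.0, and 132 in the same order. NRG1 is transcribed in many alternative forms, and the annotation pairs these probe sets with different NRG1 transcript records. Which forms were measured was not tested here. Read from the probe set with the highest mean, NRG1 would be counted as not differing.

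**Figure D3:**
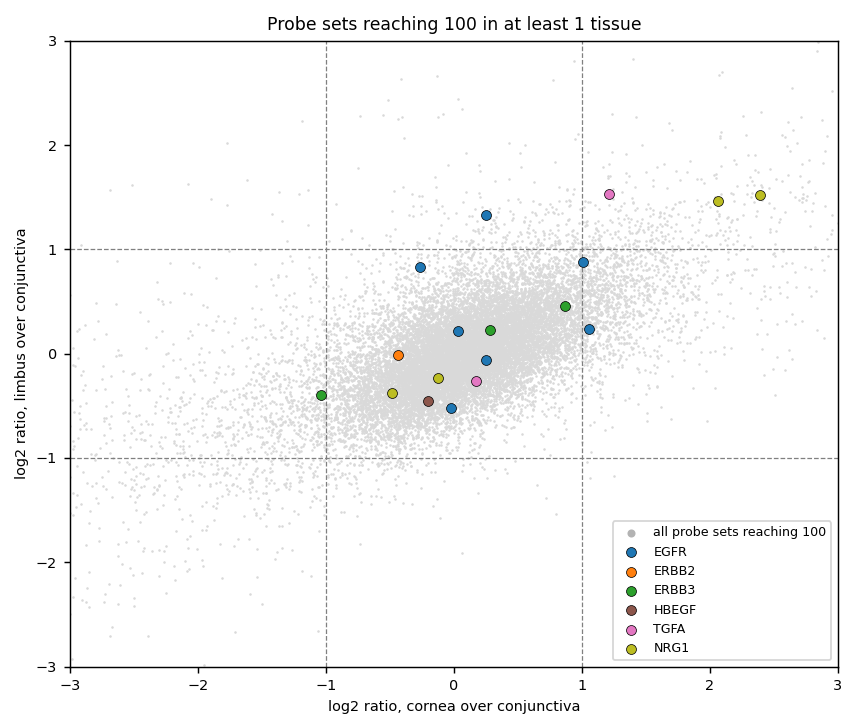
Log2 ratio of the cornea over the conjunctiva (x axis) and of the limbus over the conjunctiva (y axis) for the 18 member probe sets that reach 100 (coloured by gene) and for all 19302 such probe sets (grey), from 1 array per tissue. Dashed lines mark 2-fold. A pair of NRG1 points and 1 TGFA point lie beyond 2-fold on both axes, 2 EGFR points lie just right of the 2-fold line for the cornea, 1 EGFR point passes the line for the limbus alone, and 1 ERBB3 point lies at the left line; grey points beyond 3 on either axis are not drawn.

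The order of cornea above limbus above conjunctiva was the most frequent among the 18 member probe sets that reached 100. It was found in 6, which were the brightest pair of EGFR, the brightest pair of ERBB3, and the NRG1 pair above. Among all 19302 probe sets reaching 100 this order was also the most frequent, at 26.5%. The highest tissue was the cornea in 8 of the 18, the conjunctiva in 6, and the limbus in 4, compared with 42.7%, 33.3%, and 24.0% of all such probe sets. With division by the hybridization controls, 8 of the 18 had another highest tissue. These counts describe probe sets of 6 genes and are near the shares of the array as a whole.

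Some epithelial markers had the same order of tissues as the brightest EGFR and ERBB3 probe sets. Of 5 measured epithelial markers, 3 were highest in the cornea and 2 in conjunctiva, and their summed values were 15143 in limbus, 12548 in cornea, and 11550.0 in conjunctiva. KRT5, a basal keratin, was at 7264 in cornea, 6129 in limbus, and 3293 in conjunctiva, so that the cornea was 2.21-fold above the conjunctiva, a ratio close to that of EGFR. KRT14, the keratin that pairs with KRT5 in basal cells, went the other way, at 4580 in limbus, 53.1 in cornea, and 5521 in conjunctiva. This 1 marker puts the cornea below the limbus in the summed values. EPCAM, another epithelial marker, was highest in the conjunctiva, at 978 against 707 in cornea and 568 in limbus. All 4 corneal epithelial markers were highest in the cornea, with summed values of 25292 there, 10295 in limbus, and 4616 in conjunctiva. All 5 goblet and mucosal markers, also epithelial, were highest in the conjunctiva, with summed values of 8311 there, 1193 in limbus, and 1659 in cornea. The part of these markers in the EGFR, ERBB3, and NRG1 differences was not tested.

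Nonepithelial markers moved the other way between the cornea and the conjunctiva. The summed values of 5 endothelial markers were 1253 in limbus, 379.6 in cornea, and 1984 in conjunctiva. For 5 smooth muscle and pericyte markers they were 1470.4, 388, and 4032, and for 6 leukocyte markers 590.1, 451, and 1010.4. ERBB3 and NRG1 are also known from melanocytes and Schwann cells. The summed values of 6 melanocyte markers were 1967 in limbus, 545 in cornea, and 964 in conjunctiva, and those of 4 Schwann cell markers were 404, 262, and 769. Both sums were lowest in the cornea, although S100B, a Schwann cell marker, was highest there, at 27.2 against 17.8 in limbus and 20.0 in conjunctiva. GFRA3, the brightest of the 4 Schwann cell markers, was at 168 in limbus, 62.7 in cornea, and 508 in conjunctiva. On its other probe set the values were 106, 118, and 138, in the same order. SOX10 was in both the melanocyte and the Schwann cell lists. The part of these markers in the member differences was not tested. Of the 7 keratocyte and fibroblast markers, KERA, LUM, and DCN were highest in the cornea and 4 in conjunctiva, with summed values of 11751, 14181, and 21234. The marker lists contained no gene at 0, but linear values after RMA are always positive, so this does not show detection.

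For each of the members above 100 that differed by 2-fold on the brightest probe set, the genes nearest in pattern were found among 11003 genes. The measure was the distance between log2 values over the 3 tissues, each minus its own mean. For EGFR they were SMIM19 (a distance of 0.02), DYNLRB2 (0.02), and SHROOM2 (0.02). For TGFA they were SCNN1A (0.09), BPNT1 (0.10), and BRI3BP (0.11). SCNN1A, a subunit of the epithelial sodium channel, was at 440.2 in limbus, 380.2 in cornea, and 164 in conjunctiva. In all, 80 genes lay within 0.1 of EGFR and 1 within 0.1 of TGFA.

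The remaining genes of the pathway were read from 6 lists, on the probe set of each gene with the highest mean log2 value. Of 71 genes listed, 64 had a named probe set and 58 reached 100 in at least 1 tissue. Of these 58, 17 were at least 2-fold apart between some pair of tissues, compared with 20.3% of all genes reaching 100. The cornea was higher than the conjunctiva for 9 of the 58 (8.52% of all such genes) and the conjunctiva higher than the cornea for 4 (8.24%). The cornea was higher than the limbus for 5 (3.84%) and the limbus higher than the cornea for 4 (5.97%). The limbus was higher than the conjunctiva for 2 (3.94%) and lower for 2 (3.3%). Over all 64 genes, division by the hybridization controls changed the count for the cornea over the conjunctiva from 11 to 4 and that for the limbus over the cornea from 4 to 15. By the rule of 2-fold over both other tissues, 0 pathway genes were selected for the limbus, 4 for the cornea (GPC1, SDC1, SPRY4, and IER3), and 0 for the conjunctiva, compared with 0.573%, 3.05%, and 2.63% of all genes reaching 100. These counts rest on the brightest probe set. Of the 44 other pathway probe sets that reached 100, 1 met the rule for the limbus, 1 for the cornea, and 3 for the conjunctiva. The one for the limbus was 201150_s_at of TIMP3, an inhibitor of ADAM proteases, at 149.5 in limbus, 47.6 in cornea, and 65.5 in conjunctiva. The one for the cornea was 222473_s_at of ERBIN, at 218 in cornea, 81.3 in limbus, and 64.8 in conjunctiva. With the hybridization controls, ADAM9, DUSP6, ERBIN, HRAS, IER3, SPRY1, SPRY2, and SPRY4 no longer differed by 2-fold on their brightest probe sets. Other genes reaching 100 passed 2-fold only with them: CCND1, CD9, DUSP1, DUSP5, EGR1, GAB2, GRB2, LRIG3, MYC, SOCS3, and TIMP3.

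Among 16 feedback inhibitors, which damp signaling downstream of the receptors, 9 were highest in the cornea, where 43.4% of all genes reaching 100 were highest. SPRY4, a Sprouty protein that restrains the Ras cascade, was at 330.3 in cornea, 145 in limbus, and 147 in conjunctiva. It was 2-fold above both other tissues, but with the controls these ratios were 1.49 over the limbus and 1.80 over the conjunctiva. SPRY2, of the same family, was at 1114 in cornea, 597 in limbus, and 466 in conjunctiva. SPRY1 differed from these, with 1064 in conjunctiva, 705 in cornea, and 514 in limbus. On its probe set 230212_at the tissues were closer, at 200, 180, and 167 in the same order. SPRED2, a related inhibitor, was at 514 in cornea, 506 in limbus, and 249 in conjunctiva. DUSP6, a phosphatase that inactivates ERK, was at 978 in cornea, 841 in conjunctiva, and 481 in limbus. Of the other DUSP6 probe sets, 208892_s_at was also highest in the cornea and 208893_s_at in the conjunctiva. ERRFI1, an inhibitor that binds EGFR directly, fell short of the 2-fold rule, at 1173 in cornea, 629 in limbus, and 665 in conjunctiva.

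Of 7 membrane partners, 6 reached 100 on the brightest probe set, and 4 of these differed by 2-fold, compared with 20.3% of all genes reaching 100. The heparan sulfate proteoglycan SDC1 was at 1271 in cornea, 619 in limbus, and 288 in conjunctiva, and the glypican GPC1 was at 614, 160.3, and 118. Both met the rule of 2-fold over both other tissues for the cornea. With the controls GPC1 still met it, whereas the ratio of cornea to limbus of SDC1 was 1.34. On the second probe set of each gene the cornea was also highest, but the differences were below 2-fold. ERBIN, a scaffold that binds ERBB2, was at 1811 in cornea, 909 in limbus, and 856 in conjunctiva. The membrane mucin MUC1, known to associate with ERBB receptors, was lowest in the cornea, at 133 against 472 in limbus and 526 in conjunctiva. On its probe set 213693_s_at the cornea was also lowest, at 70.4, but the limbus and the conjunctiva were only 1.55-fold and 1.85-fold above it. MUC4, a membrane mucin that binds ERBB2, was under 100 and did not differ by 2-fold on its brightest probe set, but 217110_s_at was at 289 in conjunctiva, 48.5 in limbus, and 11.5 in cornea. The tetraspanin CD9, a partner of membrane-bound HBEGF, was at 8458 in limbus, 6184 in cornea, and 6408 in conjunctiva. With the controls its limbus value was 2.10-fold above the cornea.

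Of 11 genes of ligand shedding, 10 reached 100 on the brightest probe set. Of these 10, 2 differed by 2-fold, compared with 20.3% of all genes reaching 100. ADAM17 and ADAM10, the main proteases that release EGFR ligands, were at 301 and 1445 in limbus, 389 and 2277 in cornea, and 303 and 2269 in conjunctiva. The protease ADAM9 was 2-fold higher in the conjunctiva (710.2) than in the limbus (323), with the cornea at 627, and ADAM19 was at 127 in conjunctiva, 73.0 in limbus, and 48.9 in cornea. All 17 measured adaptors and kinases reached 100, and 3 differed, compared with the same 20.3%. GAB1, a docking protein downstream of EGFR, was at 715 in cornea, 366 in limbus, and 251 in conjunctiva, and HRAS was at 755, 457, and 366, in the same order. PIK3R1, the regulatory subunit of PI3-kinase, was highest in the limbus, at 1745 against 1255 in conjunctiva and 817 in cornea. On its probe set 212240_s_at the conjunctiva was highest instead, at 1218 against 1084 in limbus and 533 in cornea.

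Of 9 response genes, which are induced by growth factor signaling among other stimuli, 8 reached 100 on the brightest probe set. Of these 8, 3 differed by 2-fold, compared with 20.3% of all genes reaching 100, and they did not run one way. FOS, an immediate early transcription factor, was at 289.6 in conjunctiva, 209 in limbus, and 39.6 in cornea. PHLDA1, an early response gene of growth factor signaling, was at 380.1 in limbus, 315 in conjunctiva, and 42.7 in cornea. Its probe set 225842_at also passed 2-fold, at 243 in limbus, 200 in conjunctiva, and 50.2 in cornea. On 217996_at and 217998_at the limbus was only 1.58-fold and 1.84-fold above the cornea. IER3 was at 460 in cornea, 181 in limbus, and 216 in conjunctiva. EGR1 (499 in limbus, 284 in cornea, and 465 in conjunctiva) and FOSL1 (74.2, 58.4, and 63.2) did not differ by 2-fold on their brightest probe sets. The EGR1 probe set 201693_s_at was at 127 in conjunctiva, 61.7 in limbus, and 55.9 in cornea, so that the conjunctiva was 2.06-fold and 2.28-fold above them. With the controls, EGR1, DUSP1, and MYC also differed on their brightest probe sets, with the limbus 2.69-fold, 2.23-fold, and 2.15-fold above the cornea. CCND1 differed with them too, with the limbus 2.35-fold above the conjunctiva. Its other probe set, 208711_s_at, did so without the controls, at 312 in limbus, 399 in cornea, and 148 in conjunctiva.

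Of 4 other measured EGF family ligands, only NRG2 reached 100, at 101 in limbus, 136 in cornea, and 106 in conjunctiva. EGF itself, named here after its values were seen, was at 69.0 in cornea, 22.2 in limbus, and 24.2 in conjunctiva. On these low values the ratio of cornea to limbus was 3.11. EGF had a single named probe set.

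**Figure D4:**
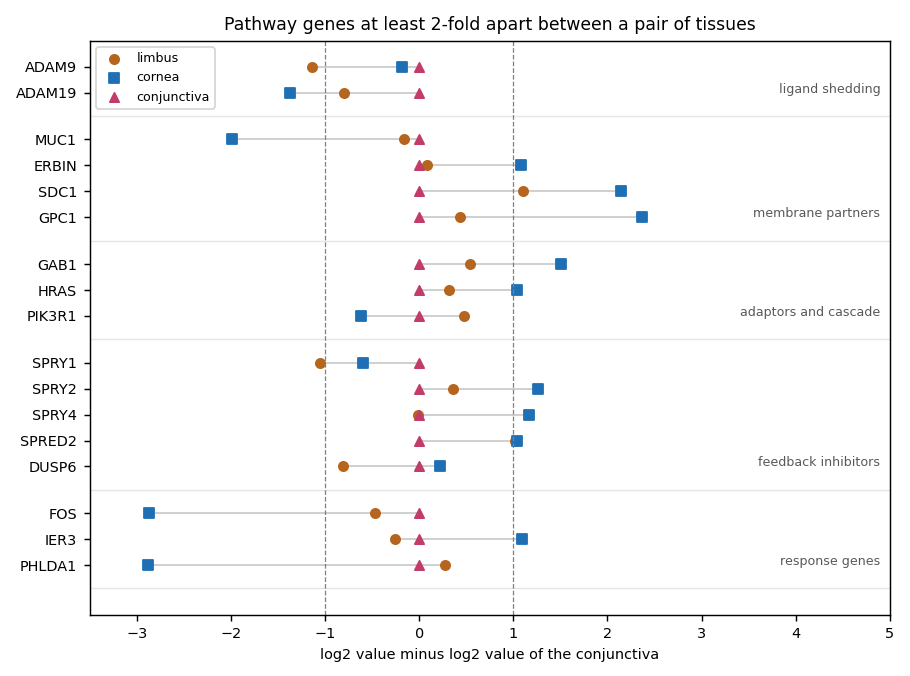
Log2 value minus the log2 value of the conjunctiva for the 17 pathway genes that reach 100 and are at least 2-fold apart between some pair of tissues, from 1 array each of limbus (circles), cornea (squares), and conjunctiva (triangles, at 0); dashed lines mark 2-fold. GPC1 and SDC1 lie farthest to the right in the cornea, and FOS, PHLDA1, and MUC1 farthest to the left.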

How the data were processed

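Vervet monkey RNA from limbus, cornea, and conjunctiva was amplified by the authors and hybridized to human U133 Plus arrays, with 1 array per tissue. The deposited intensities are on a linear scale. Per the labels and the methods, the authors normalized each array by RMA (justRMA; version not given in the sources used here) against fixed reference arrays, so scale differences between the 3 arrays can remain. The 3′ to 5′ ratio of GAPDH was 3.12 in limbus, 4.58 in cornea, and 3.83 in conjunctiva. That of ACTB was 11.8, 11.2, and 10.3, in the same order. Probe sets far from the 3′ end can therefore be weak, and possibly not equally so in each tissue. The bearing of this on the ratios was not tested. The table held 0 columns of other samples.

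Probe sets were named from an older platform annotation. Of 54675, 41097 had 1 symbol, 1801 several, and 11777 are not named here; a gene is represented, where 1 value is needed, by the probe set whose mean log2 value is highest. Ratios are of linear values within a probe set, counted at 2-fold, with Python 3.11.15, numpy 2.4.6, and pandas 2.3.3; figures used matplotlib 3.10.9. The counting step was run on simulated data with an assumed noise, which checks the code alone. It does not show how often noise passes 2-fold in these arrays. The number of arrays limits the precision. Named are all members, pathway genes that reach 100 and differ by 2-fold, and the 3 nearest genes of each such member. CD9, ADAM17, ADAM10, ERRFI1, EGR1, FOSL1, NRG2, EGF, MUC4, TIMP3, KRT14, and S100B were added after their values were seen. The same holds for CCND1, DUSP1, DUSP5, GAB2, GRB2, LRIG3, MYC, SOCS3, GFRA3, and SOX10. Members and lists were chosen with earlier results of these data known. Alternative settings vary the low values, pseudocount, scaling, threshold, and probe set. No sequence of a probe or member is shown, since none was among the sources used here.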

Additional observations from a re-analysis of the deposited data

How the results depend on the processing

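With no replicate arrays, a result is called unchanged when a count moved by at most 1.5 times or a ratio kept its direction and its side of 2-fold. Of 11 member probe sets 2-fold apart between some pair of tissues, 2 were so at 3-fold and 5 with a pseudocount of 32. The 4 genes became 0 at 3-fold and 2 with the pseudocount or with a value of at least 100 in the higher tissue. The 2 probe sets counted for 1 tissue became 8 at 1.5-fold, 0 at 3-fold or with the pseudocount, and 1 with a value of at least 100. The 19 pathway genes became 31 at 1.5-fold and 6 at 3-fold. Division by the median, quantile normalization, division by hybridization controls, and the other choices of probe set left these 4 counts within 1.5 times. The 4 genes were not the same with the controls, where ERBB2 joined ERBB4, TGFA, and BTC, and EGFR did not. Division by the hybridization controls raises every limbus value by 0.30 and lowers every cornea value by 0.31 on the log2 scale; the ratios given are relative to that shift. With it, 8 of the 18 member probe sets reaching 100 had another highest tissue, among them 224999_at, 226213_at, 202454_s_at, and 206237_s_at, where the limbus was then highest. Of 46 differences of 2-fold among members and pathway genes, 29 kept 2-fold with it, 38 after quantile normalization, and 45 after division by the median. In these settings 0 changed direction. Division by the controls or the median shifts any ratio by less than 2-fold, so it could not have reversed a difference selected at 2-fold. With the controls, the NRG1 probe sets 206237_s_at and 206343_s_at kept ratios of cornea to conjunctiva of 3.35 and 4.19, and EGFR fell to 1.66-fold. The pathway count for the cornea over the conjunctiva went from 11 to 4 with the controls and to 7 after quantile normalization. With the median taken over the 9 EGFR probe sets, the log2 ratio of cornea over conjunctiva was -0.030 in place of 1.06; that median can set different probe sets against each other. No paired analysis was possible because each tissue has 1 array.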
